A study of Drosophila melanogaster with 2 samples.

Results

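The Enhancer of split complex is a cluster of Notch-responsive genes on chromosome arm 3R. Its 10 members taken here are, in order along the arm, E(spl)mdelta-HLH, E(spl)mgamma-HLH, E(spl)mbeta-HLH, E(spl)malpha-BFM, E(spl)m3-HLH, E(spl)m4-BFM, E(spl)m5-HLH, E(spl)m7-HLH, E(spl)m8-HLH and gro. The rule names these genes and uses no peak value, though they were chosen with earlier results of these data known. The region is the union of their gene bodies with 2 kb on each side, 45.3 kb in 6 intervals. It held 10 of the 8309 summits (the highest point of a peak) in the conservative peak list, the shorter of 2 thresholded lists the authors derived from both replicates. The other is called the broader list here, and each replicate also has a list of its own. The members are 10 of 13945 annotated protein-coding genes on the 6 main arms.

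The samples were whole Drosophila melanogaster embryos collected from 0 to 24 h, from the transgenic strain vvl-GFP, which expresses a fusion of vvl with eGFP. The labels record an insertion that targets vvl, without saying whether an untagged copy of the gene remains, and give no sex. The protein vvl (ventral veins lacking) is a POU-domain transcription factor, and the chromatin was precipitated with an antibody against GFP. Both samples, biological replicates 1 and 2, belong to 1 group that carries the fusion, and the possible control named in the labels was not analysed here. Embryos of all stages and cell types were pooled, so a peak does not say in which cells vvl was bound.

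Notch signalling acts through the DNA-binding protein Suppressor of Hairless, Su(H), which switches on genes of this complex in cells that receive the signal. Of the members, 7 encode basic helix-loop-helix (bHLH) repressors of the Hes type, which silence proneural genes. E(spl)malpha-BFM and E(spl)m4-BFM encode Bearded-family proteins, known to inhibit the ubiquitin ligase Neuralized. The corepressor Groucho, encoded by gro, is recruited by the Hes-type repressors through a short motif at their C-terminus.

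The sequences that follow show the DNA under the 3 strongest summits. Each is given 5′ to 3′ on the plus strand of 3R in the dm6 assembly, 50 bp to either side of the summit, and was read from Release 6 of the genome. Capitals mark the POU octamer in the first sequence and the word TGCAAAT in the second. The third, under the strongest summit, holds none of the words searched in this window. The intervals are 3R:25996573-25996673, 3R:26009068-26009168 and 3R:26042469-26042569.
E(spl)mdelta-HLH upstream: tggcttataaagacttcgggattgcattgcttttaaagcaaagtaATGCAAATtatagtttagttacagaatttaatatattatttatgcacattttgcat
E(spl)malpha-BFM upstream: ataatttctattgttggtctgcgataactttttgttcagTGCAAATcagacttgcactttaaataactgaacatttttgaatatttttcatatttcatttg
gro intron: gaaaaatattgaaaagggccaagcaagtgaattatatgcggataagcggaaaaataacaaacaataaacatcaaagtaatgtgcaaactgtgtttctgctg

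A further set of sequences shows head-to-head pairs of Su(H) words, the layout known as the Su(H) paired site of Notch-responsive E(spl) genes. Capitals mark the words, and 17 bp separate them in each of these 5 pairs, with 6 bp of flank printed. They are on the plus strand at 3R:25999551-25999595, 3R:26020745-26020789, 3R:26024852-26024896, 3R:26036363-26036407 and 3R:26040010-26040054. They are printed because their distances to vvl-eGFP summits, given further on, differ widely. A pair downstream of E(spl)mgamma-HLH, also with 17 bp between its words, is not printed, and it lay inside a peak of the broader list. No summit of the conservative list lay within 100 bp of any of the 5 printed pairs.
E(spl)mgamma-HLH: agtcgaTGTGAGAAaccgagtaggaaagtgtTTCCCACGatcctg
E(spl)m3-HLH: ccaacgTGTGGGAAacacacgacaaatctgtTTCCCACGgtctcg
E(spl)m4-BFM: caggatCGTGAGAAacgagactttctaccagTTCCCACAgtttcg
E(spl)m7-HLH: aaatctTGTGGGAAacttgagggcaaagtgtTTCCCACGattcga
E(spl)m8-HLH: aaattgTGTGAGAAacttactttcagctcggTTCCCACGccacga

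Conservative summits of vvl-eGFP lay upstream of E(spl)mdelta-HLH, E(spl)mbeta-HLH, E(spl)m3-HLH and E(spl)m7-HLH, on both sides of E(spl)malpha-BFM and at gro. The strongest was at gro, followed by those upstream of E(spl)mdelta-HLH and E(spl)malpha-BFM. Within 2 kb of the gene body, 7 of the 10 members had a conservative summit, where 47.0% of all protein-coding genes did. Of the 9 members other than gro, which are short genes, 6 had one, where 34.4% of the 2852 protein-coding genes with windows in the same range of length did. Neighbouring members share windows and summits, and no test was made. The members without a conservative summit were E(spl)mgamma-HLH, E(spl)m4-BFM and E(spl)m5-HLH.

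Every peak value below is the authors' own signal per peak, used to rank peaks within a list. The 10 summits had signals of 83.3 to 847 with a median of 163, against a median of 141 and a maximum of 3300 over the conservative list. Above the list's median were 7 of the 10. Their density was 2.21 per 10 kb, against 0.621 over the 6 arms and 0.717 over the merged windows of all protein-coding genes. Over the whole span of 56.3 kb, from 2 kb before E(spl)mdelta-HLH to 2 kb after gro, there were 12 summits. Of 2375 side-by-side stretches of that length, 3.83% held 12 or more.

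**Figure D1:**
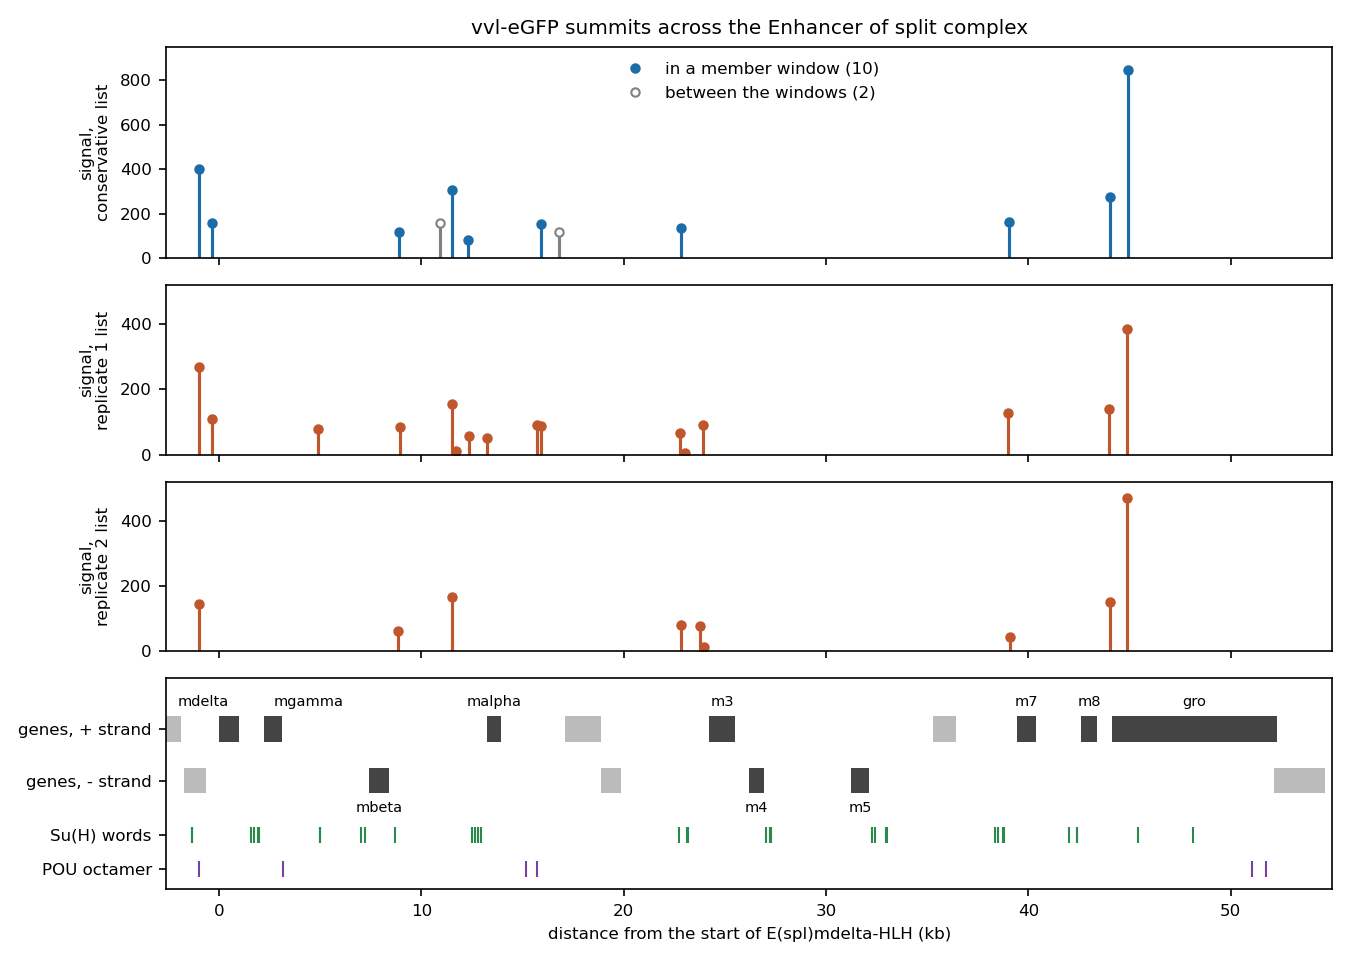
Peak signal (no unit) of summits in the conservative list and in each replicate's thresholded list, against distance in kb from the start of E(spl)mdelta-HLH, above the genes (members dark, other protein-coding genes pale) and the Su(H) words and POU octamers within the member windows. The replicate panels show summits inside member windows only. Summits cluster at the left end, around malpha and at gro, and none of the 10 lies between m3 and the summit upstream of m7.

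The corepressor gene gro carried the strongest summit of the complex. It lay in an intron at 3R:26042360-26042646 (summit 26042519), 783 bp downstream of the first gro start and 122 bp upstream of the nearest of its other starts. Its conservative signal was 846.65, rank 152 of 8309. In the ranked lists of the replicates its signal was 386.68 (rank 230 of 73622) in replicate 1 and 469.84 (rank 110 of 90260) in replicate 2. The summits of both replicates lay within 15 bp of the conservative one. This peak stood highest of the 10 in each replicate.

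A further summit lay 64 bp upstream of the first gro start, at 3R:26041474-26041869, with a conservative signal of 274.95 (rank 1375). Its signals were 141.44 in replicate 1 and 149.79 in replicate 2. Both peaks fall in the window of gro (FBgn0001139, 3R:26041736-26049911, plus strand) and in that of its neighbour E(spl)m8-HLH (FBgn0000591, 3R:26040240-26041008). E(spl)m8-HLH, a repressor expressed in proneural clusters, thus counts as having a summit only through peaks at gro starts. The summit nearest to its own start was 1432 bp away.

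E(spl)mdelta-HLH (FBgn0002734, 3R:25997621-25998633), a bHLH repressor known from the developing eye, had 2 summits, both upstream. The stronger, at 3R:25996501-25996744, lay 998 bp before its start, with a conservative signal of 400.45 (rank 691). Its signal was 270.12 in replicate 1 and 143.31 in replicate 2, and the summits of both replicates lay 2 bp from the conservative one. This summit is in an intron of the divergent neighbour CG43116, 373 bp into that gene, and CG43116 has the nearest start. It is the summit of the complex with the POU octamer, whose centre lay 1.5 bp from the summit.

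The weaker summit of E(spl)mdelta-HLH, at 3R:25997092-25997487, lay between both genes, 331 bp before E(spl)mdelta-HLH and 294 bp before CG43116. Its conservative signal was 161.32. In replicate 1 it had a signal of 109.83 and was in the thresholded list. In replicate 2 its signal was 38.88 with a −log10 of the irreproducible discovery rate (IDR) of 0.183, and no peak of the thresholded list overlapped it. The IDR measures how well a peak keeps its rank between rankings, and the threshold of the shorter lists is a −log10 IDR of 2.

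The other bHLH genes with a summit had weaker ones. E(spl)m7-HLH (FBgn0002633, 3R:26037038-26038019) had 1 summit in its promoter, 378 bp before the start (3R:26036462-26036857), with a conservative signal of 163.94 (rank 3342). Its signal was 126.52 in replicate 1 (rank 2315) and 40.5 in replicate 2 (rank 7423), so this peak stood higher in replicate 1. E(spl)mbeta-HLH (FBgn0002733, 3R:26005046-26006023), known from the wing, had 1 summit 505 bp before its start, with a conservative signal of 118.26 (rank 5302). The peak was at 3R:26006330-26006725, with its summit in an exon of the noncoding gene lncRNA:CR45039. Its signals were 83.51 in replicate 1 and 61.05 in replicate 2. The broader list does not hold this summit and has weaker peaks 710 bp (signal 42.88) and 1358 bp (signal 66.44) before the start. The nearer of these, at 3R:26006535-26006930, overlaps the conservative peak. Of the 10 conservative summits, the other 9 are in the broader list, as are 92.6% of all 8309 conservative summits.

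E(spl)m3-HLH (FBgn0002609, 3R:26021823-26023127) had 1 conservative summit 1383 bp before its start (3R:26020242-26020637, signal 137.79, rank 4298). The nearest start was that of lncRNA:CR43644, 636 bp away. Its signals were 65.41 in replicate 1 and 80.26 in replicate 2. A nearer peak at the E(spl)m3-HLH promoter was in the thresholded lists of both replicates and in the broader list, but not in the conservative one. Its summits lay 296 bp before the start in replicate 1 (signal 91.25) and 426 bp before it in replicate 2 (signal 74.37).

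In the broader list this promoter peak was 118 bp wide, at 3R:26021447-26021564, with a signal of 174.79 (rank 3040 of 11692). The peak at that place in the ranked list behind the conservative set had a −log10 IDR of 0.297. The thresholded list of replicate 2 held a further, weaker peak there, 225 bp before the start, with a signal of 11.63. The promoter of E(spl)m3-HLH thus had peaks past the threshold in each replicate's own list and none in the conservative list.

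The Bearded-family gene E(spl)malpha-BFM (FBgn0002732, 3R:26010893-26011568) had 3 conservative summits, the most of any member. The strongest was intergenic at 3R:26008994-26009224, 1775 bp upstream, with a conservative signal of 308.37 (rank 1135). Its signals were 156.2 in replicate 1 (rank 1536) and 164.59 in replicate 2 (rank 881). TGCAAAT, the octamer without its first base, was centred 8 bp from this summit. A weak peak followed 979 bp upstream (3R:26009716-26010111, signal 83.3, rank 7477), which no peak in the list of replicate 2 overlapped. At the start of E(spl)malpha-BFM itself, a peak with its summit 16 bp upstream was in the broader list (signal 78.36) and in the list of replicate 1 (signal 52.3). In replicate 2 it had a signal of 25.74 and a −log10 IDR of 0.517, under the threshold.

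The third summit of E(spl)malpha-BFM lay 2655 bp downstream of its start, at 3R:26013350-26013745 (signal 154.53). Its signals were 88.14 in replicate 1 and 76.64 in replicate 2. It is nearer to the start of Kaz-m1, 1173 bp away, a gene of the complex with a Kazal-type protease inhibitor domain. That summit is the one closest to the edge of the region, and it falls 20 bp inside. The summit nearest to the region from outside was 362 bp from its edge, at 3R:26008333-26008728, 2362 bp upstream of E(spl)malpha-BFM (signal 159.18). The other Bearded-family member, E(spl)m4-BFM (FBgn0002629, 3R:26023821-26024579), had no summit in any of the 4 thresholded lists. The highest −log10 IDR in its window was 0.382 in the ranked list of the series, at a peak of signal 29.25. It was 0.132 in replicate 1 and 0.639 in replicate 2.

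No conservative summit lay in a stretch of 16.2 kb between the summit upstream of E(spl)m3-HLH (26020440) and that upstream of E(spl)m7-HLH (26036660). It was the longest gap between neighbouring summits of the span. Over the 6 arms summits lay at 0.621 per 10 kb, so a gap of this length is near their average spacing. In the region of the complex they lay closer together, at 2.21 per 10 kb. This stretch contains the bodies of E(spl)m3-HLH, E(spl)m4-BFM, E(spl)m5-HLH and the Bearded-family gene E(spl)m6-BFM, which is not among the 10 members. E(spl)m5-HLH (FBgn0002631, 3R:26028854-26029735) had no summit in any thresholded list. The highest −log10 IDR in its window was 1.11 in the ranked list of the series, 1.61 in replicate 1 and 0.658 in replicate 2. The ranked signals behind them were 37.11, 40.28 and 20.35. The lists give no depth, and binding too weak for a peak past the threshold was not detectable from them.

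E(spl)mgamma-HLH (FBgn0002735, 3R:25999851-26000761), a repressor known from neuroblasts, had no conservative summit either. A peak 2667 bp downstream of its start was in the broader list (3R:26002320-26002715, signal 100.74). It was in the list of replicate 1 (signal 78.47, −log10 IDR 2.87). At that place replicate 2 had a ranked peak of signal 23.08 with a −log10 IDR of 1.01, under the threshold.

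**Figure D2:**
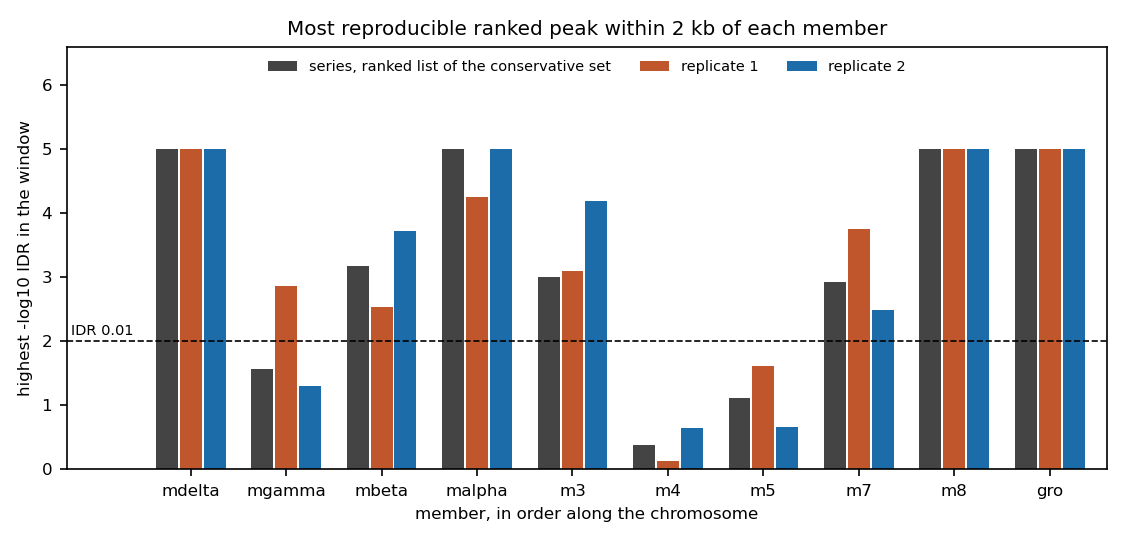
Highest −log10 IDR (capped at 5) of any ranked peak in the window of each member, for the ranked list of the series and for each replicate; the dashed line is the threshold of 2. Bars of m4 and m5 stay under the line in all 3 lists, and mgamma passes in replicate 1 alone with 2.87.

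Counted in each replicate's own list, 8 members had a summit in replicate 1 and 7 in replicate 2, where 46.3% and 45.5% of protein-coding genes had one. The broader list gave 8 members, where 54.4% of genes had one. E(spl)mgamma-HLH made the difference in replicate 1 and in the broader list. The thresholded list of replicate 1 held 16 of its 9050 summits in the region and that of replicate 2 held 9 of its 7098. Among them were weak calls, in replicate 1 with signals of 10.44 (rank 8753) and 5.07 (rank 8924), in replicate 2 of 11.63 (rank 6979). Each of these weak calls overlapped a stronger peak of the same list. In replicate 1, peaks of signal 90.7 and 88.14 downstream of E(spl)malpha-BFM also overlapped each other. The counts of 16 and 9 thus include summits of overlapping peaks.

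Of the 10 conservative peaks, 8 overlapped a peak in both replicates' lists, where 62.4% of all conservative peaks did. The exceptions, the weaker summit of E(spl)mdelta-HLH and that 979 bp upstream of E(spl)malpha-BFM, were both absent from the list of replicate 2. Ranked by signal, the order of the 10 summits had a Spearman correlation of 0.745 between replicates. This describes 10 peaks taken from a list that was itself derived from both replicates, and all 10 share their libraries. The summit in gro was first in each replicate, while those at m7 and m3 differed most in order among the peaks that overlap both lists.

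**Figure D3:**
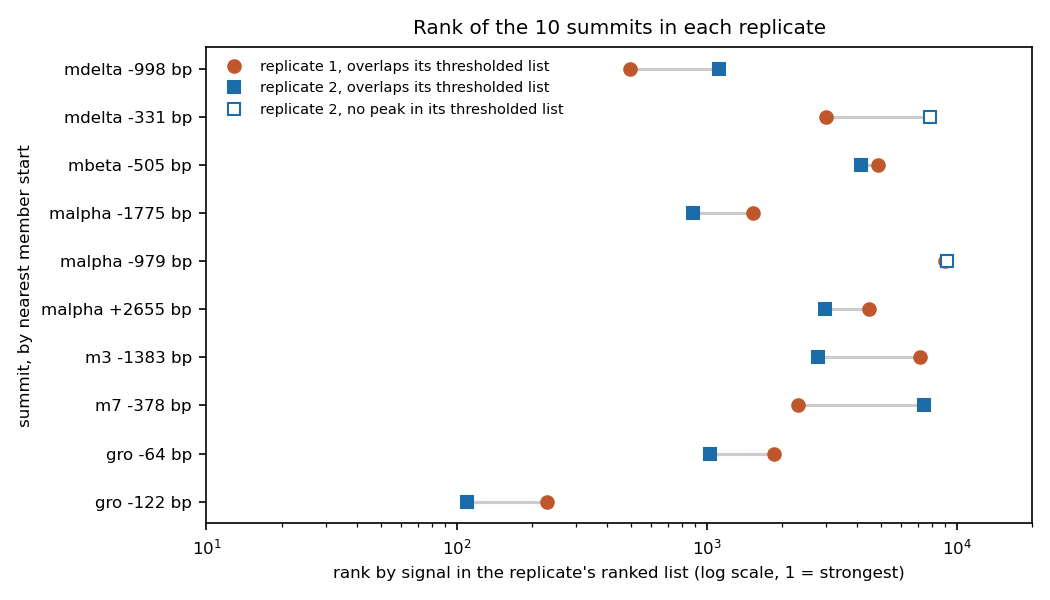
Rank by signal in each replicate's ranked list (log scale, 1 is the strongest) for the 10 summits, named by the nearest member start; circles are replicate 1, squares replicate 2, and open squares mark summits with no overlapping peak in the thresholded list of replicate 2 (at malpha −979 bp the square covers the circle). The gro summit is first in both, at rank 230 and rank 110.

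Assigned by nearest start, the summits were divided among fewer members. The start of a member was the nearest for 6 of them, with gro and E(spl)malpha-BFM taking 2 each and E(spl)mbeta-HLH and E(spl)m7-HLH 1 each. These are 4 of the 10 members, where 29.6% of protein-coding genes had the nearest start of some summit. The other 4 summits were nearest to CG43116, with 2, and to Kaz-m1 and lncRNA:CR43644. By location, 5 were within 500 bp of a start, 1 was in a noncoding exon and 4 were intergenic. Inside the body of a member lay 1 of the 10, that in the gro intron.

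Other genes of the complex were counted with the same 2 kb windows. Kaz-m1 had 2 summits, of which 1 lay 281 bp before its start (3R:26014242-26014637, signal 119.66). E(spl)m2-BFM and E(spl)m6-BFM had none. Of the Bearded-family genes, E(spl)malpha-BFM was thus the only one of the 4 in the complex with a conservative summit. Outside it, Brd and Ocho on 3L shared their strongest peak (signal 221.77, rank 2020), and the other 2 genes of that family counted had none. Of the 5 Hes-type genes outside the complex that were counted, cwo (signal 331.38, rank 995) and hry, also known as hairy (signal 163.42, rank 3355), had a summit and the others had none. The 47.0% of all protein-coding genes given above stands beside each of these gene lists, whose windows were not matched in length. In a list of Notch signalling genes, 12 of 16 had a summit, led by mam (signal 542.22), N (443.87) and numb (426.5). Their strongest peaks were nearest to the starts of CG18371 for mam and CG18508 for N, and of numb itself.

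The POU octamer ATGCAAAT was within 100 bp of 1 of the 10 summits, where 6.68% of all conservative summits had it. Both strands were searched for every word. The windows of the complex held 6 octamers, of which 1 lay within 100 bp of a summit, that upstream of E(spl)mdelta-HLH printed above. Over the 6 arms, 2.5% of 23805 octamers lay that near to one. The POU words ATGCTAAT and ATGCATAT were near none of the 10 summits, against 2.64% and 2.56% of all summits. TGCAAAT, which every octamer contains, was near 2 of them, against 10.4%. Of the composition controls, AACATGTA was near none of the 10 and TAAACGTA near 1, against 0.915% and 0.722%. An octamer at 1 of 10 summits is thus the same count as that of a control word. Of its 16 summits in the region, the list of replicate 1 gave 2 with an octamer, the further one downstream of E(spl)malpha-BFM, 17.5 bp from the summit. That of replicate 2 gave 1 of 9. The share over all summits of these lists was not counted. The octamer was found in the 500 bp upstream of none of the 10 members and of 6.49% of protein-coding genes. Words of core promoters were near none either, with TATCGATA (DRE), GGTCACAC (M1BP), GAGAGAG and TATAAAAG at 3.8%, 3.02%, 5.98% and 1.94% of all summits. TAATTA, the core of homeodomain sites, was near 2, against 15.6%, and CAGGTAG, a Zelda word, near none, against 0.746%.

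Su(H) words were denser in the complex than over the genome, and 1 of them lay near a conservative summit. The words CGTGGGAA, TGTGGGAA, CGTGAGAA and TGTGAGAA occurred 35 times in the 45.3 kb, or 7.72 per 10 kb, against 1.06 per 10 kb over the 6 arms. They were in the 500 bp upstream of 6 of the 10 members, where 5.06% of protein-coding genes had one. Those 6 were mgamma, mbeta, malpha, m4, m5 and m8 of the E(spl) genes. Of them, mbeta and malpha had conservative summits nearest to their own starts, with 1 and 2. The summits counted for m8 lay at gro starts, mgamma had none in the conservative list, and m4 and m5 had none in any thresholded list.

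Within 100 bp of a conservative summit lay 1 of the 35 Su(H) words, and over the 6 arms 1.27% of 14158. That word was at the E(spl)m3-HLH summit, centred 93.5 bp from it. Read by summits, 1 of the 10 had a Su(H) word, where 2.05% of all summits did. The list of replicate 1 gave 2 such summits among its 16 in the region, and that of replicate 2 gave 0 among 9. The share over all summits of these 2 lists was not counted. The E-boxes CAGCTG and CAGGTG, bound by proneural activators, were near none of the 10, against 9.89% and 5.76% of all summits. CACGCG, a site of Hes-type repressors, was near 1 of them, that downstream of E(spl)malpha-BFM, which had 2 copies, and near 4.72% of all summits. The related sites CACGTG and CACGAG were near none, against 2.56% and 4.15%. In the 500 bp upstream of the start, CAGGTG was found at 5 of the 10 members and 17.0% of protein-coding genes, and CAGCTG at 2 members and 22.2% of genes.

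Head-to-head pairs of Su(H) words, with starts 20 to 35 bp apart, were found 16 times on the 6 arms, and 8 of these were in the complex. The spacing was chosen after the words of the complex were seen, so the count describes this definition alone. The 8 pairs were nearest to mdelta (in a coding exon of CG43116), mgamma (2), m3, m4, m5, m7 and m8. None of the 16 had a conservative summit within 100 bp. In the complex, the distance from pair to conservative summit was 275 bp at m7, 326 bp at mdelta and 327 bp at m3. It was 1640 bp at m8, 2283 and 3899 bp at mgamma, 4434 bp at m4 and 6044 bp at m5. The other lists placed some of these pairs nearer to a summit. In the list of replicate 1, the m3 pair lay inside a peak of signal 5.07 and 98 bp from its summit, while its nearest summit in replicate 2 was 300 bp away. The pair 2778 bp downstream of the mgamma start lay inside the broader-list peak described above, 111 bp from its summit, and inside that of replicate 1, 130 bp from its summit. In replicate 2 the nearest summit was 3821 bp away. Of the 8 pairs, 0 lay inside a peak of the conservative list or of replicate 2, 1 inside a peak of the broader list and 2 inside peaks of replicate 1. Of all 16 pairs on the 6 arms, these counts were 0 for the conservative list and replicate 2, 2 for the broader list and 3 for replicate 1. The pair 1056 bp upstream of E(spl)m3-HLH lay between its conservative summit and its promoter peak.

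**Figure D4:**
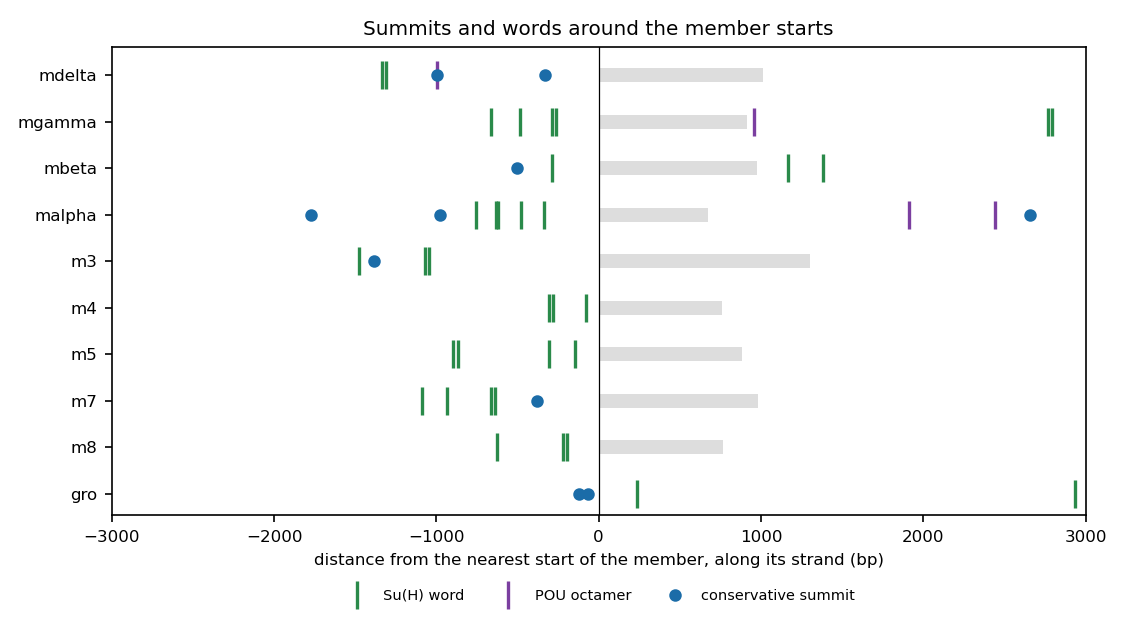
Position in bp, along the gene's strand, of conservative summits (circles), Su(H) words (green ticks) and POU octamers (violet ticks) relative to the nearest start of the nearest member; pale bars are gene bodies, left out for gro, which has several starts. Su(H) words gather upstream of the starts of mgamma, malpha, m4, m5, m7 and m8, and the octamer under a summit is the one upstream of mdelta.

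The base composition of the summits varied widely. From 100 bp before to 100 bp after them, GC content was 24.9% to 55.7%, with a median of 36.3%, against a median of 38.8% over all conservative summits. The lowest was at m7, with 24.9%, and the highest at the summit downstream of malpha, with 55.7%. Of 184 peaks that pass the IDR threshold in the ranked list but are absent from the conservative list analysed here, none lay in the span of the complex, and the nearest on 3R was 945539 bp away.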

How the data were processed

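Chromatin immunoprecipitation with an antibody against GFP was sequenced from 2 biological replicates, 1 group. Per the labels, fragmentation was by sonication, with a size range of 200 to 800. Per the text files deposited with the samples, the authors made dm6 peak lists per replicate and from both replicates' alignments. Which aligner and peak caller they ran is not stated in the sources used here. Each deposited list gives a score of at most 1000, a signal whose normalization is not stated, and a summit offset. Deposited ranked lists add the −log10 of the IDR, capped at 5, and thresholded lists have a score of at least 830. The deposited lists carry no counts, so depth is unknown and no interval was made.

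Summits of the conservative list were assigned to gene bodies with 2 kb on each side and to the nearest transcript start (Ensembl release 115, without transposable elements). A peak was called promoter within 500 bp of a start. Replicates were compared by overlap of 1 bp or more, and replicate signals come from the nearest ranked summit within 100 bp. Both strands of the Release 6 sequence were searched for words up to 100 bp from each summit. All 10 members have the same coordinates in the RefSeq table. No test was made: there is 1 group, and peaks are not replicates. The counting, nearest-start and word searches were tested on simulated positions and sequences. All members are named with their summits. The other genes of the complex and up to 3 genes of each comparison list, by signal, are named too, and those nearest to a summit. The members and lists were chosen with earlier results of these data known. Listed genes were matched by symbol or, for older symbols, by synonym in the RefSeq table, and 1 Bearded-family gene was not used here. Tools were Python 3.11.15, pandas 2.3.3, numpy 2.4.6, scipy 1.17.1 and matplotlib 3.10.9.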

Additional observations from a re-analysis of the deposited data

How the results depend on the processing

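No paired analysis was possible because both replicates belong to 1 group. Leaving out a replicate means using the other's own list. Without replicate 1 or without replicate 2, the region held 9 to 16 summits, the members with a summit were 7 to 8 and those with the nearest start 4 to 5. Octamer summits were 1 to 2 and Su(H) summits 0 to 2, the higher counts in the list of replicate 1, and the strongest summit ranked in the first 1.48% to 2.44%. Overlap with both replicates has no value there. Gene bodies without a flank held 1 summit, that in gro, leaving 1 member with a summit, 1 with the nearest start, 1 summit in both replicates, 0 with the octamer and 0 with a Su(H) word. The strongest summit, in the first 1.83% of the conservative list, was in the first 1.3% of the broader list and 3.66% of the 4154 highest-signal peaks, which differ in length. Su(H) summits were 0 in those 4154 peaks and 0 within 50 bp. With 5 kb flanks 9 members had a summit. The other alternatives kept each count within 1.5 times, among them the whole span, an alternative chosen after seeing the data. Signals, not reads, limit what can be said of the weak peaks.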
